A study of Mus musculus with 44 samples.

Results

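The neighbouring hairpins of miR-132 and miR-212 give 4 mature microRNAs (miRNAs), and these were followed through small RNA libraries of the mouse hypothalamus. They are the 3p and 5p arms of 2 hairpins, mmu-miR-132-3p, mmu-miR-132-5p, mmu-miR-212-3p and mmu-miR-212-5p, written without the species prefix from here on, and they were taken by name from the 1978 mature miRNAs that the deposited count table lists. One of them, miR-132-3p, is the RNA that the injected oligonucleotide of the study was made to bind. The other 3 are the opposite arm of its hairpin and the 2 arms of the neighbouring hairpin.

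All 44 libraries came from C57Bl/6J mice, the common inbred laboratory strain. The 16 AM132 libraries were from mice made obese by a high fat diet and injected into a vein with an oligonucleotide of 16 nt, protected by locked nucleic acid (LNA) and complementary to miR-132. The 16 AM608 libraries were from obese mice given an LNA oligonucleotide of 15 nt against miR-608, a primate miRNA, and they were the injected control. The diet ran for 11 weeks, the dose was 3.3 mg/kg on 3 consecutive days, and the tissue was taken 7 days later. The 12 RCD libraries were from lean, age-matched mice on regular chow. The labels do not describe RCD mice as injected, so diet and injection cannot be told apart in a comparison with RCD, and ages in weeks are not given. The labels name 4 batches without saying which step they share. AM132 and AM608 had 4 libraries each in batch 1, 8 each in batch 2 and 4 each in batch 3. Of the RCD libraries 4 were in batch 2 and the other 8 made up batch 4.

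A miRNA hairpin is cut by Dicer into a duplex, one arm of which is loaded into an Argonaute protein and pairs with messenger RNAs mainly through its seed, bases 2 to 8. The pair of hairpins is transcribed as 1 unit in neurons under the transcription factor CREB, and it is known for responses to neuronal activity, dendrite growth and the light response of the circadian clock. An LNA antisense oligonucleotide pairs with a mature miRNA and blocks it.

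The sequences show how close the target is to the other arms, as RefSeq gives them on GRCm38.p6. Each mature arm is written with its seed in capitals.
miR-132-3p: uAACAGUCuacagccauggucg
miR-212-3p: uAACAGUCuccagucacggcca
miR-132-5p: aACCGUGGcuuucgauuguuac
miR-212-5p: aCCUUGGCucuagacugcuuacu

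The 3p arms of both hairpins share the seed and are the same over their first 9 bases. Over 22 positions 17 are the same, and the differences from miR-132-3p to miR-212-3p, counted from 1 at the 5′ end, are A10C, C14U, U17C, U20C and G22A. The 5p arms have different seeds and are the same at 9 of 22 positions. The labels do not say which 16 of the 22 bases of miR-132-3p the oligonucleotide covers. A window of 16 bases from position 1 would meet 2 mismatches on miR-212-3p, and one that starts at position 7 would meet 5. In the hairpins below, capitals mark the mature arms, 5p first.
Mir212: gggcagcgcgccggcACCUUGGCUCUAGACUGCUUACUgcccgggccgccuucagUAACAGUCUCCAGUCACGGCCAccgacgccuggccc
Mir132: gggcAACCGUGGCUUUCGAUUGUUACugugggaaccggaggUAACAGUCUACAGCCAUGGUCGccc

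Mir212 lies at chr11:75173388-75173478 and Mir132 at chr11:75173682-75173747, both on the plus strand and 203 bases apart. Within them miR-212-5p spans 75173403 to 75173425, miR-212-3p 75173443 to 75173464, miR-132-5p 75173686 to 75173707 and miR-132-3p 75173723 to 75173744. Both hairpins fall between exon 1 (75172560 to 75172597) and exon 2 (75173978 to 75174161) of the noncoding transcript 1700016P03Rik in GENCODE on GRCm38, that is, in its first intron.

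The libraries held 3020192 to 5997234 miRNA counts each, with a median of 3996734. The whole hypothalamus was used, in which fewer cells of a type and less RNA per cell cannot be told apart. All 9 miRNAs of a list of neuronal markers were counted in every group. In batch 2, 3 libraries stood apart by miRNAs of other tissue. Summed over a list of 9 pituitary and epithelial miRNAs, AM608 5 had 21359 counts scaled to a common library total (CPM) and AM132 6 had 17337, against at most 713 in the AM132 and 1242 in the AM608 libraries of that batch once AM132 5, AM132 6 and AM608 5 were set aside. AM132 5 stood apart less on that list, with 1143 CPM of miR-375-3p and 295 CPM of miR-200b-3p. These were at 496 and 6584 in AM132 6, and at 15541 and 1924 in AM608 5. Over 3 muscle miRNAs AM132 6 had 3061 CPM. The AM132 libraries of batch 2 had at most 465 without AM132 5 and AM132 6. The muscle miRNA miR-1a-3p by itself was at 524 CPM in AM132 5. AM132 6 also had 135974 CPM of miR-148a-3p. Its summed neuronal list was the lowest of its group at 126816 CPM. For miR-132-3p, comparisons of AM132 below are therefore given with and without AM132 6 or these 3 libraries. Most values of the other arms are given with all libraries. Other batches also held libraries apart. RCD 2 of batch 4 had 11617 CPM over 6 choroid plexus and ciliated miRNAs (group median 2545). AM132 3 of batch 1 had 1682 CPM over 3 oligodendrocyte miRNAs (group median 509) and 697 over 3 muscle miRNAs (261). Each was the lowest library of its group and batch for all 4 arms.

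The 5p arms were the abundant ones. Over all libraries miR-132-5p had 333079 counts and ranked 66th in the table, miR-212-5p had 291395 and ranked 70th, miR-132-3p had 169224 and ranked 99th, and miR-212-3p had 10475 and ranked 269th. Together they made up 0.443% of all counts. The log2 ratio of 3p to 5p counts was below 0 in every library for both hairpins. It had a mean of -1.04 ± 0.52 (SD, n = 44) and a range of -3.87 to -0.49 for miR-132, or -0.98 ± 0.28 (SD, n = 43) and -1.69 to -0.49 without AM132 6, and a mean of -4.83 ± 0.25 (SD, n = 44) for miR-212. These are read counts of RNAs of 22 or 23 nt, and whether the library kit takes up the arms equally was not tested.

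The level of every arm was lower in batch 2 than in the other batches when given as log2 CPM after scaling by the trimmed mean of M values (TMM), with a prior count of 2. Relative to a list of neuronal miRNAs in the same library, the group means of both miR-212 arms were instead higher in batch 2 than in the other batches in AM132, AM608 and RCD, and so was that of miR-132-3p in RCD, while miR-132-5p was lower in batch 2 in all 3 groups on that scale too. For miR-132-3p the order of the group means was AM608 in batch 1 (10.38), RCD in batch 4 (10.33), AM608 in batch 3 (10.30), AM132 in batch 1 (10.20), AM132 in batch 3 (10.11), RCD in batch 2 (9.45), AM608 in batch 2 (9.37) and AM132 in batch 2 (8.42). The first 5 of these lay within 1 SD of their neighbours, as did RCD and AM608 in batch 2. The step from the other batches to batch 2 exceeded the SD of the groups on either side. The step from AM608 to AM132 in batch 2 exceeded the SD of AM608 (0.16) and, without the library AM132 6, that of AM132 (8.76 ± 0.25, n = 7), but not that of AM132 with it (1.00). The other 3 arms were likewise lower in batch 2, with group means of 10.07 to 10.18 against 11.07 to 11.41 for miR-132-5p, 5.35 to 5.57 against 5.98 to 6.21 for miR-212-3p, and 10.23 to 10.30 against 10.81 to 11.06 for miR-212-5p.

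**Figure D1:**
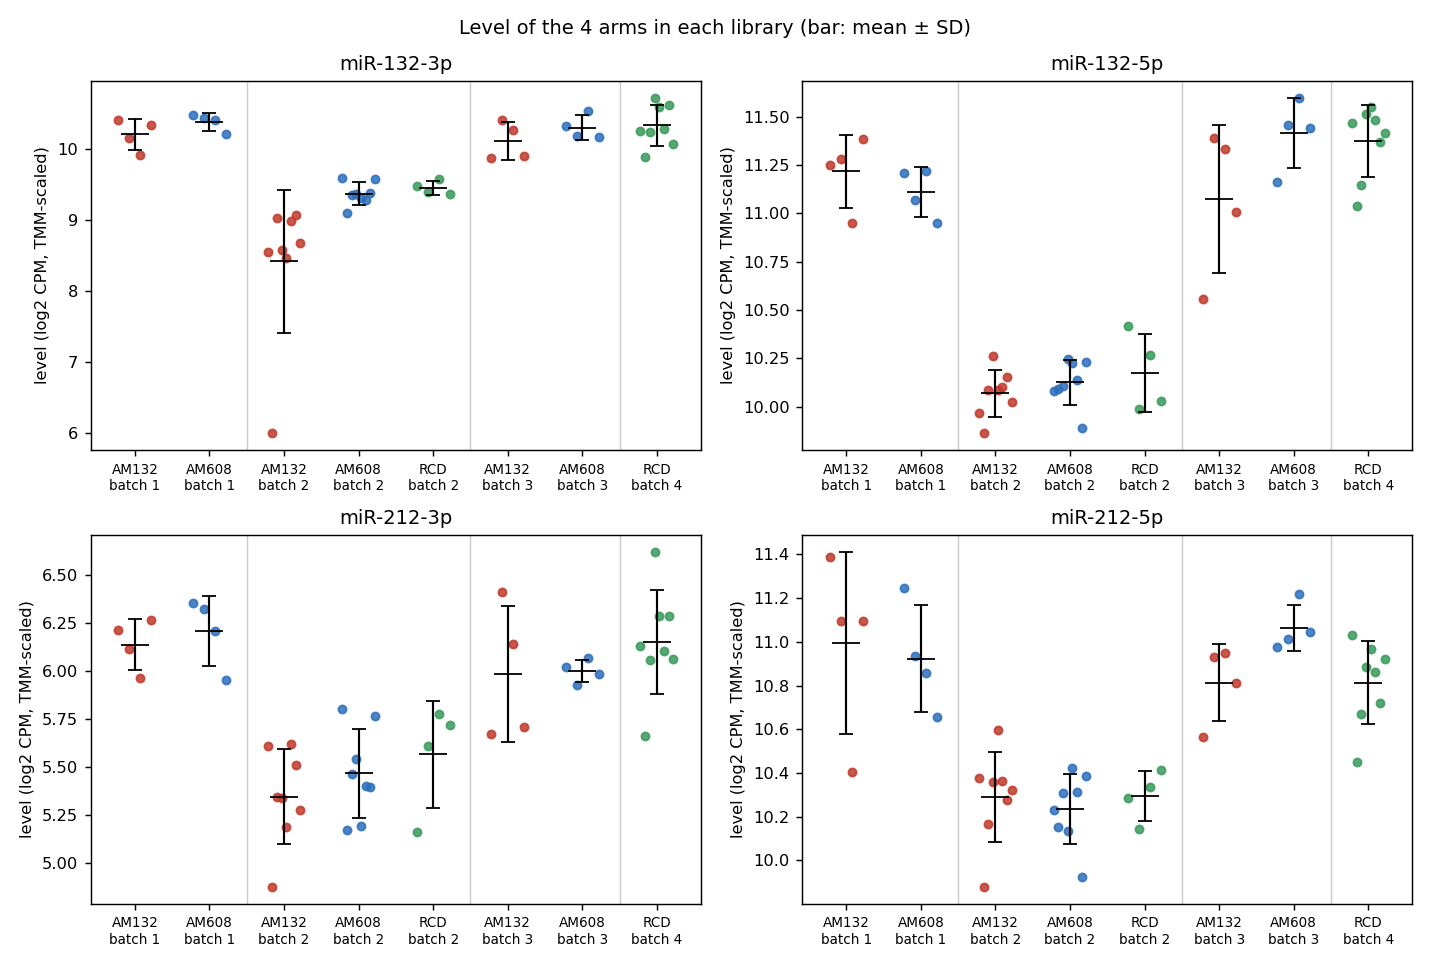
Level of each arm (log2 CPM, TMM-scaled, one vertical axis per arm) in the 44 libraries, by group and batch. Points are libraries and bars are mean ± SD. On this scale all 4 arms sit lower in batch 2 (relative to the neuronal list the miR-212 arms do not in any group, nor miR-132-3p in RCD), and in that batch only miR-132-3p has its 8 AM132 libraries (6.00 to 9.07) wholly below the 8 AM608 libraries (9.09 to 9.59).

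The first comparison asked whether the oligonucleotide against miR-132 lowered its target in the hypothalamus. In batch 2 the AM132 libraries had a lowest level of miR-132-3p of 6.00, a median of 8.62 and a highest of 9.07. The AM608 libraries had 9.09, 9.36 and 9.59. Every AM132 library was below every AM608 library, though the nearest of them were 9.07 and 9.09. The means were 8.42 ± 1.00 and 9.37 ± 0.16 (SD, n = 8 each), a difference of -0.95 with an exact 2-sided permutation p of 0.000155, the smallest that 12870 splits allow, and 0.00186 after Benjamini-Hochberg adjustment over 12 tests (4 arms in 3 batches). In the same batch 0.16% of 624 miRNAs had AM132 wholly below AM608. Before scaling, the medians were 459 CPM in AM132 and 766 CPM in AM608.

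The library AM132 6 alone was far below the rest. It had 253 counts of miR-132-3p among 4063385, or 62.3 CPM with a 95% Wilson interval of 55.0 to 70.4, which covers counting error only, as no molecular identifiers mark the reads that PCR copied. The next lowest AM132 library of the batch was at 8.47. AM132 6 was also the lowest AM132 library of batch 2 for the other 3 arms, at 9.86 for miR-132-5p, 4.88 for miR-212-3p and 9.88 for miR-212-5p, where the next lowest were at 9.97, 5.19 and 10.16. The neuronal list, as a mean log2 CPM, was 12.14 in AM132 6. Over the AM132 libraries of batch 2 it was 12.11 to 12.37, with AM132 5 the lowest. The part of the neuronal list in the low miR-132-3p of AM132 6 was not tested. Without AM132 6 the difference was -0.61, the groups still did not overlap, and the adjusted exact permutation p was 0.00186. Without AM132 5, AM132 6 and AM608 5 it was -0.54 with an adjusted p of 0.00699. Relative to the neuronal list of each library the difference was -0.92 (adjusted permutation p = 0.00373), or -0.59 (adjusted permutation p = 0.00559) without AM132 6, and there the highest AM132 library (-3.17) and the lowest AM608 library (-3.18) just overlapped.

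Batches 1 and 3 did not show this separation. In batch 1 the miR-132-3p levels of AM132 1 to 4 were 10.40, 10.15, 9.92 and 10.34, and those of AM608 1 to 4 were 10.47, 10.43, 10.40 and 10.20. The groups overlapped, with a difference of -0.18 (exact permutation p = 0.171, adjusted p = 0.514). In batch 3 AM132 13 to 16 had 9.86, 10.40, 10.26 and 9.90, and AM608 13 to 16 had 10.32, 10.18, 10.53 and 10.16. AM132 14 and AM132 15 lay among the AM608 libraries, and the difference was -0.19 (exact permutation p = 0.257, adjusted p = 0.517). With 4 against 4 libraries the smallest p is 0.0286. In each of these batches 3 of 4 AM132 libraries were below the AM608 mean, and in batch 2 all 8 were, 14 of 16 in all.

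Over the 32 libraries of both injected groups miR-132-3p averaged 9.29 ± 1.14 over the AM132 libraries and 9.85 ± 0.52 over those of AM608 (SD, n = 16 each), where the SD includes the batch differences. The within-batch difference was -0.57, with a permutation p of 3e-05 from 100000 resamples of labels within batch, and -0.39 (p = 4e-05) without AM132 6. edgeR's quasi-likelihood test, fitted with batch as a term and adjusted over all 559 tested miRNAs, called 0.358% of them, and none of the 4 arms was among the 2 called, miR-34c-3p and let-7b-3p. The edgeR fold change of miR-132-3p was -0.46 ± 0.16 (log2, SE) with an adjusted p of 0.593, and by unadjusted p it ranked 6th. Without AM132 6 the SE fell, and miR-132-3p was called lower at -0.37 ± 0.08 with an adjusted edgeR p of 0.0152 (0.356% of 562 called). Without AM132 5, AM132 6 and AM608 5 it was -0.33 ± 0.08 with an adjusted edgeR p of 0.0614.

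**Figure D2:**
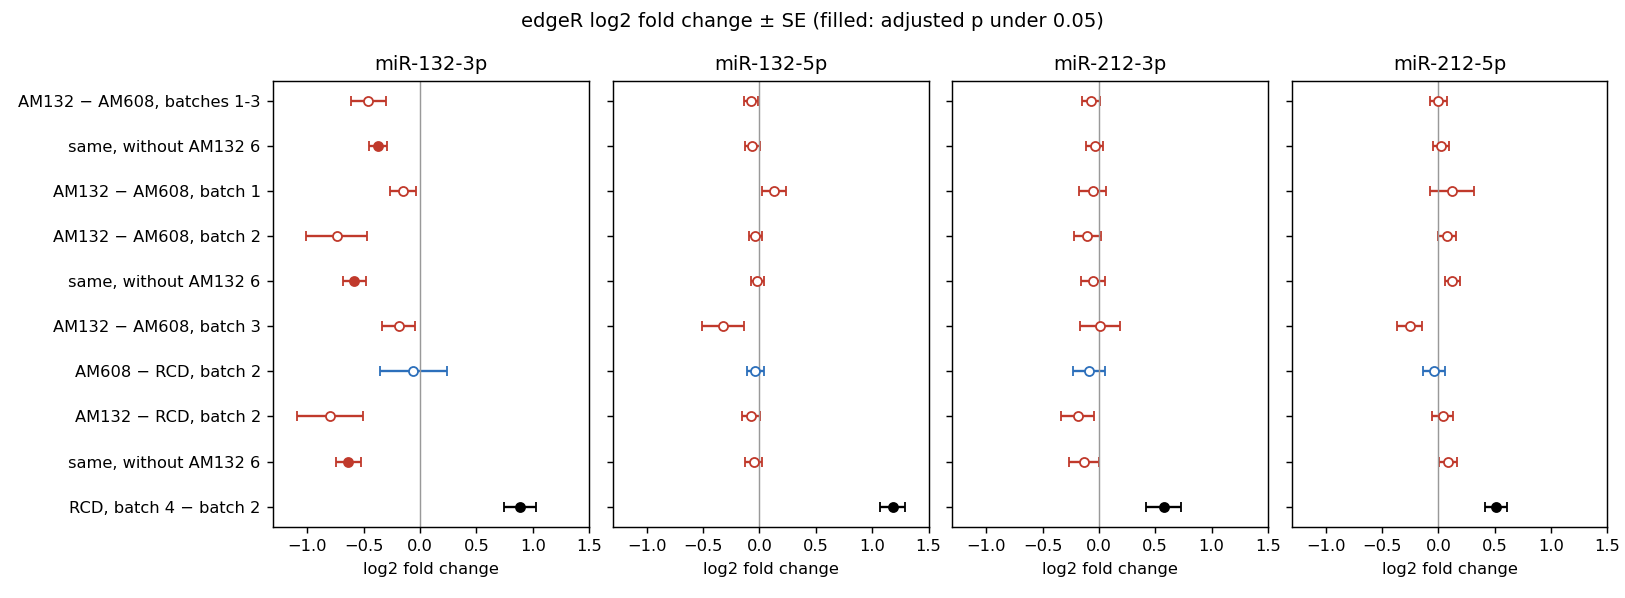
edgeR log2 fold changes of the 4 arms with their SE (horizontal axis) for each comparison named at the left; filled points have an adjusted p under 0.05. The estimate for miR-132-3p in AM132 against AM608 is below 0 in each batch and is called without AM132 6 (-0.37) but not with it (-0.46), and all 4 arms are higher in RCD batch 4 than in RCD batch 2 under TMM scaling (0.51 to 1.18).

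Whether the effect differed between batches was tested by the group-by-batch terms. The edgeR fold changes of miR-132-3p were -0.15 ± 0.11, -0.74 ± 0.27 and -0.19 ± 0.15 in batches 1, 2 and 3. The interaction had an adjusted edgeR p of 0.945 with all libraries, and 0 of 559 miRNAs passed it, with 23 at an unadjusted p under 0.05. Without AM132 6 the unadjusted p of miR-132-3p was 0.0281 and the adjusted edgeR p 0.909. A difference in effect between batches was thus not shown. Within batch 2 alone edgeR gave -0.58 ± 0.10 without AM132 6, with an adjusted p of 0.00723, and an adjusted p of 0.614 with it. Of these 2 fits, the one without AM132 6 was not planned beforehand.

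For miR-132-5p, the opposite arm of the target's hairpin, no difference between AM132 and AM608 passed a test. In batch 2 it ranged from 9.86 through a median of 10.09 to 10.26 in AM132 and from 9.89 through 10.12 to 10.25 in AM608. The ranges nearly coincided, and the difference was -0.06 (exact permutation p = 0.345, adjusted p = 0.517). In batch 1 the 4 AM132 libraries had 11.25, 11.28, 10.95 and 11.39 and the 4 AM608 libraries 11.21, 11.07, 11.22 and 10.95, a difference of 0.11 (adjusted exact permutation p = 0.517). In batch 3 AM132 had 10.56, 11.39, 11.33 and 11.01 and AM608 had 11.16, 11.46, 11.60 and 11.44. All 4 AM132 libraries were below the AM608 mean there, the ranges overlapped, and the difference was -0.34 (exact permutation p = 0.143, adjusted p = 0.514). Over 32 libraries the edgeR fold change was -0.07 ± 0.07 with an adjusted p of 0.955.

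The ratio of the 2 arms of miR-132, which needs no scaling between libraries, is a description and carries no test. In batch 2 miR-132-3p over miR-132-5p, as a log2 ratio, ran from -3.87 to -1.07 in AM132 and from -0.999 to -0.49 in AM608, without overlap, with means of -1.65 ± 0.93 and -0.76 ± 0.19 (SD, n = 8 each) and of -1.34 ± 0.26 (SD, n = 7) in AM132 without AM132 6. In batch 1 it also did not overlap, at -1.13 to -0.85 in AM132 and -0.82 to -0.64 in AM608. In batch 3 the order was the other way, with a mean of -0.97 ± 0.19 for AM132 and -1.12 ± 0.21 for AM608 (SD, n = 4 each), and 0 of 4 AM132 libraries were below the AM608 mean. In batch 3 the AM132 means of both arms were under those of AM608, by -0.19 and -0.34 as given above, and neither passed the test.

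**Figure D3:**
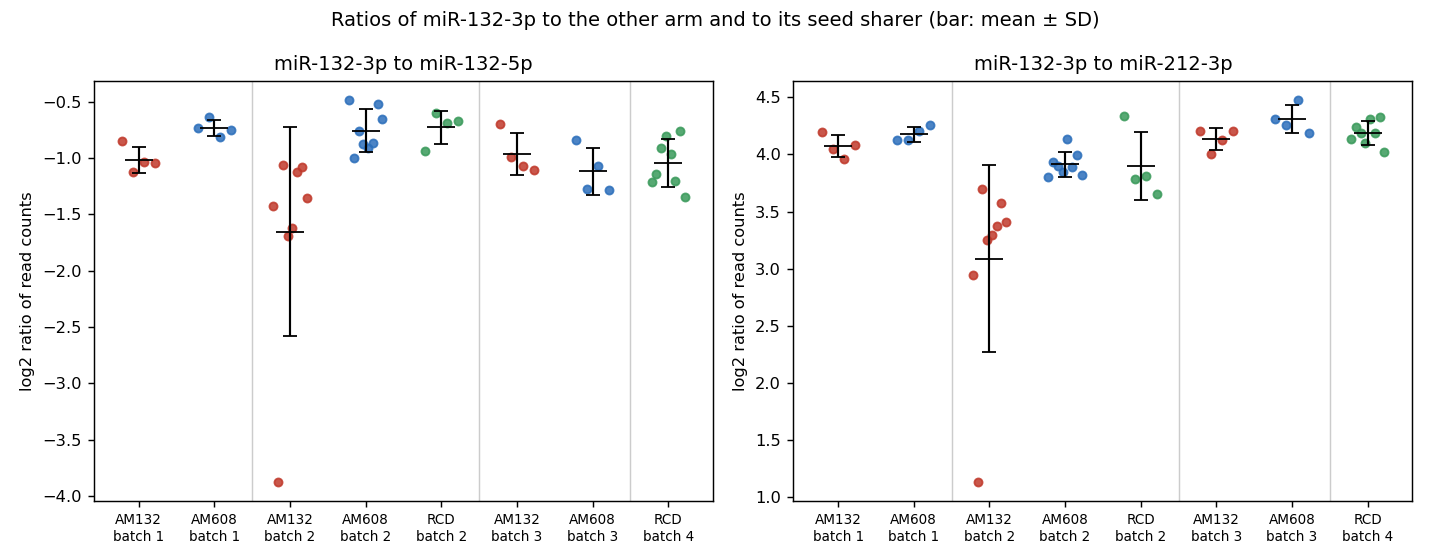
Read counts of miR-132-3p over those of miR-132-5p (left) and of miR-212-3p (right), as log2 ratios on the vertical axis, in each library, by group and batch; bars are mean ± SD. In batch 2 all 8 AM132 libraries lie below all 8 AM608 libraries in both ratios, with AM132 6 lowest (-3.87 and 1.14), and in batch 3 the 3p to 5p means of -0.97 and -1.12 run the other way.

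The neighbouring arm miR-212-3p carries the same seed as the target. In batch 2 it ranged from 4.88 through 5.34 to 5.62 in AM132 and from 5.18 through 5.43 to 5.80 in AM608. The groups overlapped over most of their range, and the difference was -0.12 (exact permutation p = 0.328, adjusted p = 0.517). In batch 1 AM132 had 6.21, 6.11, 5.96 and 6.26 and AM608 had 6.35, 6.32, 6.21 and 5.95, and in batch 3 AM132 had 5.67, 6.41, 6.14 and 5.71 and AM608 had 6.02, 5.93, 6.06 and 5.99. The differences were -0.07 and -0.02, the latter with a sign that turned without AM132 13, AM132 16 or AM608 15 and relative to the neuronal list, and the adjusted exact permutation p were 0.686 and 0.971. Over 32 libraries the edgeR fold change was -0.07 ± 0.08 (adjusted p = 0.961), and it was -0.04 ± 0.07 without AM132 6. The counts of miR-212-3p were 115 to 510 per library, so counting error alone is larger for it than for the other arms.

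Against its seed sharer, miR-132-3p was lower in every AM132 library of batch 2 than in any AM608 library of that batch. As a log2 ratio, miR-132-3p over miR-212-3p had a mean of 3.91 ± 0.11 (SD, n = 8) and a range of 3.80 to 4.13 in AM608, and a range of 1.14 to 3.69 in AM132, with a mean of 3.09 ± 0.82 (SD, n = 8), or 3.36 ± 0.24 (SD, n = 7) without AM132 6. In RCD of batch 2 it was 3.90 ± 0.30 (SD, n = 4), with a range of 3.65 to 4.33 that overlapped AM132. In batches 1 and 3 the AM132 means were 4.07 and 4.13 against 4.18 and 4.31 in AM608, the ranges overlapped, and 3 of 4 and 4 of 4 AM132 libraries were below the AM608 mean. Leaving out AM132 6, the ratio of the 3p arms stayed between 2.95 and 4.48 over 43 libraries.

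For miR-212-5p the groups overlapped in batches 1 and 2 and were separate in batch 3. In batch 2 it ranged from 9.88 through 10.34 to 10.60 in AM132 and from 9.92 through 10.27 to 10.42 in AM608, and in batch 1 AM132 had 11.39, 11.10, 10.40 and 11.10 and AM608 11.25, 10.93, 10.86 and 10.65. The differences were 0.06 and 0.07 with adjusted exact permutation p of 0.686 and 0.873. In batch 3 AM132 had 10.57, 10.93, 10.95 and 10.81 and AM608 had 10.98, 11.01, 11.22 and 11.05. There all 4 AM132 libraries were below all 4 AM608 libraries, with a difference of -0.25 and the smallest exact permutation p of the design, 0.0286, which was 0.171 after adjustment. In that batch 1.92% of 624 miRNAs had AM132 wholly below AM608. Over 32 libraries the edgeR fold change was 0.00 ± 0.08 (adjusted p = 0.995), with a sign that changed between settings.

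Other miRNAs that resemble the target in sequence were looked at in the same fit. Of the 1978 listed miRNAs 1679 were matched to a RefSeq sequence, and among these only miR-212-3p shares the seed of miR-132-3p, while 10 share either the seed or a run of at least 8 bases with it. Of these 4 passed the filter on low counts and 0 were called. Their edgeR fold changes in AM132 against AM608 were -0.07 ± 0.08 for miR-212-3p, 0.00 ± 0.13 for let-7f-2-3p, -0.04 ± 0.21 for miR-135b-3p and 0.02 ± 0.06 for miR-28a-5p.

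A list of 12 other miRNAs tied to neuronal activity or the circadian clock was read beside the cluster. Between AM132 and AM608, 0 of 12 were called by edgeR, 6 had positive and 6 negative fold changes, and their median was -0.00 against 0.00 over all 559 tested. The smallest unadjusted p were those of miR-188-5p (-0.17 ± 0.11, adjusted edgeR p = 0.939) and miR-184-3p (-0.20 ± 0.15, adjusted edgeR p = 0.955). The median of the 4 arms in this comparison was -0.07.

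The lean mice of batch 2 gave the second control. For miR-132-3p the 4 RCD libraries had 9.48, 9.38, 9.58 and 9.36, a narrow band within the AM608 range of 9.09 to 9.59. The difference of AM608 from RCD was -0.08 (exact permutation p = 0.394, adjusted over 12 tests 0.591) for miR-132-3p. It was -0.05 for miR-132-5p, -0.10 for miR-212-3p and -0.06 for miR-212-5p, with adjusted exact permutation p of 0.637, 0.633 and 0.633, and all 4 arms overlapped between the groups. edgeR called 0% of 599 miRNAs here, with 30 at an unadjusted p under 0.05 and 0 by DESeq2 after adjustment. The edgeR fold changes were -0.06 ± 0.30, -0.04 ± 0.08, -0.09 ± 0.15 and -0.04 ± 0.09 in the same order. The SE of miR-132-3p was 0.11 without AM132 6, since the 3 groups share 1 estimate of spread. Without AM132 5, AM132 6 and AM608 5 the fold changes were -0.10 ± 0.10, -0.04 ± 0.07, -0.15 ± 0.13 and -0.05 ± 0.08.

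AM132 was set against the same lean libraries, so that RCD is shared by both comparisons and AM132 with the first. All 8 AM132 libraries (6.00 to 9.07) were below all 4 RCD libraries (9.36 to 9.58) for miR-132-3p, and 0.481% of 624 miRNAs had AM132 wholly below RCD. The difference was -1.03, with an exact permutation p of 0.0424 and 0.102 after adjustment, and -0.69 with an adjusted p of 0.0145 without AM132 6. edgeR gave -0.80 ± 0.29 (adjusted p = 0.488, 0% of 599 called, 59 at an unadjusted p under 0.05 and 0 by DESeq2 after adjustment). Without AM132 6, in a fit that was not planned beforehand, it gave -0.64 ± 0.11 (adjusted p = 0.00716). There miR-132-3p was the 1 miRNA called, 0.167% of those tested. Without AM132 5, AM132 6 and AM608 5 it gave -0.62 ± 0.11 (adjusted p = 0.00605, 0.17% called).

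The other 3 arms overlapped between AM132 and RCD. The differences were -0.11 for miR-132-5p, -0.22 for miR-212-3p and -0.00 for miR-212-5p, with adjusted exact permutation p of 0.461, 0.392 and 0.962, and the edgeR fold changes were -0.08 ± 0.08, -0.19 ± 0.14 and 0.04 ± 0.09. Of the 12 activity and clock miRNAs, 0 were called in either comparison with RCD. The smallest unadjusted p were those of miR-184-3p (0.43 ± 0.21) and miR-485-5p (0.17 ± 0.09) in AM608 against RCD, and of miR-9-5p (0.12 ± 0.06) and miR-485-5p (0.14 ± 0.09) in AM132 against RCD.

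RCD libraries of 2 batches showed how far the arms moved with batch in mice of 1 group. In batch 4 miR-132-3p ranged from 9.89 through 10.26 to 10.71, above the 9.36 to 9.58 of batch 2. The edgeR fold changes of batch 4 over batch 2 were 0.89 ± 0.14 for miR-132-3p, 1.18 ± 0.11 for miR-132-5p, 0.57 ± 0.16 for miR-212-3p and 0.51 ± 0.10 for miR-212-5p, and all 4 were called, where 55.4% of 598 miRNAs were called. For 3 of the 4 arms, all but miR-212-3p, every batch 4 library was above every batch 2 library, where 18.4% of 624 miRNAs were so separated upwards.

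These shifts depended on the scale. The neuronal list itself had a mean log2 CPM of 12.23 in RCD of batch 2 and 13.16 in batch 4, and relative to it the differences of the arms were -0.046 for miR-132-3p, 0.27 for miR-132-5p, -0.34 for miR-212-3p and -0.41 for miR-212-5p. Only miR-212-5p passed the exact permutation test relative to the neuronal list (adjusted p = 0.0242), and its direction was opposite to that of the TMM-scaled level. On unscaled CPM miR-132-5p still passed, with a difference of 0.85, no overlap and an adjusted exact permutation p of 0.0242. The other differences were 0.53, 0.24 and 0.17 for miR-132-3p, miR-212-3p and miR-212-5p, with adjusted exact permutation p of 0.0848, 0.321 and 0.321. The lists of cell type markers also stood at different levels, here as the median of their summed unscaled CPM in batch 2 and batch 4. The astrocyte and liver lists held 1 miRNA each, so their values are the level of that miRNA. Neurons went from 167826 to 325004 and astrocytes from 21769.9 to 23988. Oligodendrocytes went from 2229 to 766, choroid plexus and ciliated cells from 5439.7 to 2545, pituitary and epithelium from 535 to 335, muscle from 415 to 187, blood from 653 to 519 and liver from 49.2 to 25.96. The part of these lists in the shifts of the arms was not tested. Of the 12 activity and clock miRNAs, 6 rose and 3 fell between these batches by edgeR, where 26.9% of the 598 tested miRNAs rose and 28.4% fell. Those that rose were miR-138-5p (1.37), miR-124-3p (1.01), miR-9-5p (1.00), miR-137-3p (0.85), miR-146a-5p (0.38) and miR-181a-5p (0.26), the first 4 of them also on the neuronal list, and those that fell were miR-134-5p (-1.44), miR-219a-5p (-1.20) and miR-188-5p (-0.66), all under TMM scaling.

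The balance between hairpins also moved with batch. As a log2 ratio, miR-132-5p over miR-212-5p was -0.22 ± 0.18 for AM132, -0.11 ± 0.11 for AM608 (SD, n = 8 each) and -0.12 ± 0.21 (SD, n = 4) in RCD of batch 2, and 0.56 ± 0.08 (SD, n = 8) in RCD of batch 4. The ratio of miR-212-3p to miR-212-5p stayed near its overall mean, from -5.08 ± 0.08 (AM608, batch 3, n = 4) to -4.67 ± 0.22 (RCD, batch 4, n = 8).

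In AM608 of batch 2 and RCD of batch 4, arms from the same side of the 2 hairpins varied together more closely than the 2 arms of 1 hairpin did; this ordering was read from the values and the differences between correlations were not tested. In the 8 RCD libraries of batch 4, miR-132-3p and miR-212-3p had r = 0.93 (exact permutation p adjusted over 18 relations 0.00402) and rho = 0.95 (adjusted exact permutation p = 0.0205), and r was 0.96 without the 2 libraries farthest from the median of miR-132-3p. In the 8 AM608 libraries of batch 2 the same pair had r = 0.92 (adjusted exact permutation p = 0.0195), rho = 0.81 (0.196 after adjustment, permutation) and r = 0.85 without 2 libraries. The 5p arms had r = 0.91 in RCD of batch 4 (adjusted exact permutation p = 0.0195), rho = 0.74 (0.275 after adjustment, permutation) and r = 0.58 without 2 libraries, and r = 0.75 in AM608 of batch 2 (0.102 after adjustment, permutation). By contrast miR-132-3p and miR-132-5p had r = 0.10 in AM608 of batch 2 and 0.66 in RCD of batch 4, and miR-212-3p and miR-212-5p had 0.10 and 0.60, with adjusted exact permutation p of 0.825, 0.179, 0.825 and 0.244. Arms from opposite sides of different hairpins were not always below these. In RCD of batch 4, miR-132-5p and miR-212-3p had r = 0.76, and miR-132-3p and miR-212-5p had 0.44 (adjusted exact permutation p = 0.0807 and 0.36). In AM608 of batch 2 these pairs had 0.12 and 0.17 (adjusted exact permutation p = 0.825 for both). For every pair in RCD of batch 4, RCD 2 was among the 2 libraries left out.

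In AM132 the link between the 3p arms was weaker once AM132 6 was left out together with AM132 11. In the 8 AM132 libraries of batch 2, miR-132-3p and miR-212-3p had r = 0.81 (adjusted exact permutation p = 0.0807) and rho = 0.62 (adjusted exact permutation p = 0.296), and r fell to 0.34 without AM132 6 and AM132 11. The ordering above did not hold throughout there, with r = 0.53 for the 5p arms and 0.70 for the 2 arms of miR-132 (adjusted exact permutation p = 0.262 and 0.179). Both values fell with 2 libraries left out. For the 5p arms r was -0.14 without AM132 6 and AM132 8. For the 2 arms of miR-132 it was 0.01 without AM132 6 and AM132 11. The arms of a library share its depth, scaling and cell makeup, and the part of these in the relations was not tested.

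**Figure D4:**
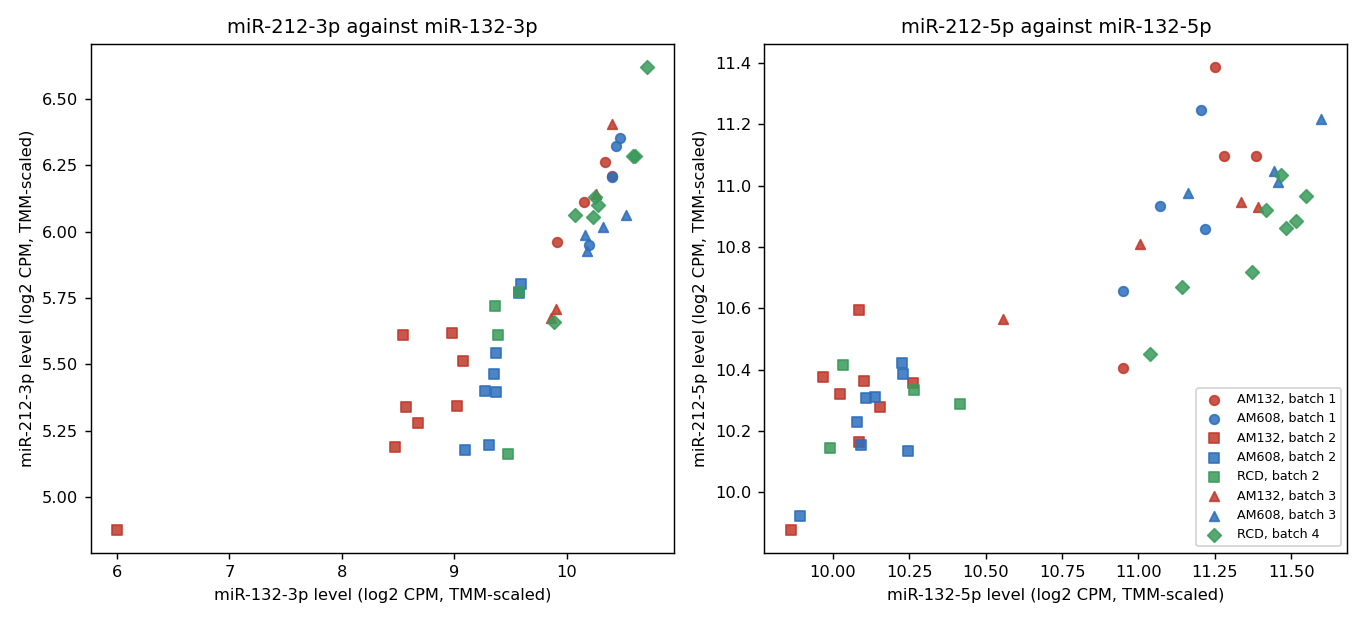
Level of miR-212-3p against miR-132-3p and of miR-212-5p against miR-132-5p (both axes log2 CPM, TMM-scaled) in 44 libraries, coloured by group with 1 symbol per batch. The 3p arms lie along a narrow band, from which the AM132 libraries of batch 2 are displaced to lower miR-132-3p, with AM132 6 at 6.00 and 4.88.

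Among the 409 miRNAs with a mean of at least 10 CPM, likeness over the 44 libraries was described by Spearman's rho of levels after the mean of each group and batch was subtracted. The nearest to miR-132-3p was miR-212-3p (0.76), followed by miR-455-3p (0.53) and miR-132-5p (0.51). The nearest to miR-212-3p was miR-132-3p, followed by miR-7a-1-3p (0.61) and miR-342-3p (0.59). For miR-132-5p the nearest were miR-212-5p (0.60), miR-128-3p (0.60) and miR-340-3p (0.57), and for miR-212-5p they were miR-504-5p (0.70), miR-488-3p (0.67) and miR-676-3p (0.61). The arm from the same hairpin ranked 3rd for miR-132-3p, 6th for miR-132-5p, 26th for miR-212-3p and 33rd for miR-212-5p. Without AM132 5, AM132 6 and AM608 5 the first of each list was the same, and miR-455-3p went from 2nd to 23rd for miR-132-3p. The arm from the same hairpin then ranked 10th for miR-132-3p, 3rd for miR-132-5p, 27th for miR-212-3p and 41st for miR-212-5p.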

How the data were processed

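RNA from 44 hypothalamus samples was made into small RNA libraries with the NEBNext kit and sequenced on an Illumina NextSeq instrument, per the labels' protocols. The authors deposited raw read counts per mature miRNA, and these counts were used as deposited. FastQC is named in the submitters' processing notes; trimming, aligner, miRNA release and handling of reads shared by similar miRNAs are not given in the sources used here. The rows of the 4 arms had no identical partner. The table of tRNA fragment counts was not used, and 0 columns belonged to other samples.

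Groups and batches came from the labels. Rows passing filterByExpr (at least 10 counts, total at least 15) were TMM-scaled and tested with edgeR 4.0.16 in R 4.3.3 by quasi-likelihood F tests, adjusted by Benjamini-Hochberg over all tested miRNAs at 0.05; the SE was taken from the fold change and its F statistic. Single arms were compared by 2-sided permutation tests in Python 3.11.15 with scipy 1.17.1, on log2 CPM with TMM over 44 libraries. Scripts were tested on simulated data. Sequences were matched by name to RefSeq for 1679 of 1978 miRNAs. The labels do not say more of the samples' independence than that each is a mouse sample, so p-values measure the spread between these samples. No library duplicated another of its group: chi-square over degrees of freedom was 5.02 or more for every pair. Replicate numbers shared by AM132 and AM608 are not stated to pair animals. Alternatives were RLE scaling, DESeq2 1.42.0, other filters, no batch term, a replicate block, all 44 libraries, prior count 0.5, and libraries left out. Not planned beforehand were edgeR against RCD without AM132 6, and edgeR within batch 2 of AM132 and AM608 without AM132 6 or without AM132 5, AM132 6 and AM608 5. The members, lists and tests were chosen with earlier results of these data known. The named miRNAs were the 4 arms, those sharing sequence with miR-132-3p, the 3 most alike each arm, and at most 2 called miRNAs per comparison for context. Those of the activity and clock list were named if past the test, or else the 2 of smallest p. Values of miR-148a-3p, miR-375-3p, miR-200b-3p and miR-1a-3p were added after they were seen.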

Additional observations from a re-analysis of the deposited data

Results flagged for a closer look

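Of 32 sets of libraries (4 arms in 8 combinations of group and batch), 2 held a library far from the others, where chance alone gives about 1 in 20. In AM132 of batch 2 the miR-132-3p level of AM132 6 was 6.00 log2 CPM, with the other 7 libraries at 8.47 to 9.07. In AM608 of batch 2 the miR-132-5p level of AM608 11 was 9.89 log2 CPM, with the others at 10.08 to 10.25.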

How the results depend on the processing

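The target miR-132-3p stayed lower in AM132 than in AM608 and RCD under every alternative run. Its call depended on AM132 6. Against AM608 the edgeR fold change was -0.37 without AM132 6, then the 1 miRNA called lower, where 1 other miRNA had been. Against RCD it was -0.64 without AM132 6 (from -0.83 when an RCD library was left out). Without AM132 5, AM132 6 and AM608 5 it was -0.62 against RCD. Both times miR-132-3p was the 1 miRNA called lower against RCD, where 0 had been. In batch 2 alone edgeR called it at -0.58 and -0.51 in these settings, and the permutation test against RCD at -0.69 (from -1.06 when an RCD library was left out) and -0.65, and at -0.67 relative to the neuronal list without AM132 6. The count of miRNAs higher in AM132 than in AM608 was 0 with no batch term and with all 44 libraries in 1 fit, and that of lower ones was 0 in these, with no filter and without the 3 libraries. RCD batch 4 minus batch 2 gave 0.53 for miR-132-3p with no scaling (no longer passing), and relative to the neuronal list it turned to -0.046, miR-212-3p to -0.34 and miR-212-5p to -0.41. The cause was not tested.

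The labels do not say that replicate numbers pair libraries, and the values neither show nor exclude it: 11 of 16 same-numbered pairs of AM132 and AM608 had a correlation of deviations over 0.1 (-0.31 to 0.54, median 0.19), 6 of 16 libraries correlated best with their own number, and of the pairs with RCD 2 of 4 (AM132) and 1 of 4 (AM608) were over 0.1. Differently numbered pairs were not summarised beside these, so the counts have no baseline here. With the replicate block miR-132-3p was -0.53 against AM608 (adjusted edgeR p = 0.461), 0.12 in AM608 minus RCD, which reversed it, and -0.77 in AM132 minus RCD, and the counts of calls did not move.

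Other reversals were of values near 0. For miR-212-5p in AM132 minus AM608 they were -0.0011 (no filter), -0.0093 (at least 10 CPM), -0.016 (no batch term), -0.011 (replicate block) and -0.0053 (all 44 libraries), and over 32 libraries by permutation 0.011 (relative to the neuronal list), 0.011 (without AM132 6) and 0.032 (both). In batch 1 leaving out a library gave -0.057 to 0.27 for miR-212-5p, and in batch 3 it gave -0.16 to 0.087 for miR-212-3p, which was 0.032 relative to the neuronal list. In AM608 minus RCD, miR-212-5p was 0.0070 with the replicate block and -0.092 to 0.0021 with an RCD library left out, and miR-132-5p was -0.10 to 0.038 (edgeR) and -0.11 to 0.031 (permutation), positive without RCD 9. In AM132 minus RCD, miR-212-5p was -0.011 to 0.088 by edgeR with a library left out. By permutation it was 0.020 (RLE scaling), 0.021 (neuronal list), -0.054 to 0.055 (a library left out, the highest without AM132 6), 0.051 (without the 3 libraries) and 0.069 (neuronal list without AM132 6). Of all values recomputed for single arms other than miR-132-3p, 282 kept direction and side of the threshold, 28 reversed and 5 lost the threshold, all of these in RCD batch 4 minus batch 2. Depth limits miR-212-3p most, at 115 counts in its lowest library.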
